A study of Mus musculus with 9 samples.

Results

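Microglia sorted from the brains of mice 3 d after a transient ischemic attack (TIA) were compared with microglia from sham-operated mice. The members of the comparison are the samples whose titles give TIA 3d (replicates 1 to 3) or Sham (replicates 1 to 3), so that 6 of the 9 samples of the series enter it, with 3 samples in each group. The other 3 samples, titled TIA 24h, share in the estimate of the spread and are otherwise described only where the time points differ. The readout was an nCounter SPRINT run with a code set for mouse neuroinflammation genes, in which single RNA molecules are counted through coloured barcodes without amplification.

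Per the methods, the mice were adult wild-type C57BL/6J animals. For the TIA, a filament was passed by way of the external and internal carotid arteries to block the middle cerebral artery. It was withdrawn after a few minutes, and sham animals had the same operation without insertion of a filament. The TIA 3d mice had the occlusion and were killed on day 3 after it. The labels give no time after surgery for the sham mice, so that time may differ as well. Brains of both groups were flushed with heparinised saline, placed in a buffer with actinomycin D, an inhibitor of transcription, digested with papain and enriched on Percoll, and live cells positive for CD45 and CD11b were sorted. That gate takes microglia from the whole brain, and it would also take macrophages of the brain borders and blood-derived myeloid cells. The design text gives 3 animals per group, and each sample is read here as 1 animal. The labels do not exclude that cells were pooled, and p-values below measure the spread between these samples, which may then be technical.

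Microglia are the resident macrophages of the brain. They live on signals through the CSF1 receptor and TGF-beta, survey their surroundings through purinergic and fractalkine receptors, and tag and remove synapses and debris with C1q, Fc receptors and the TREM2 and TYROBP pair. When such cells sense injury, NF-kB enters the nucleus and switches on chemokines together with its own inhibitors, while immediate early genes answer within minutes to many stimuli, handling of the tissue among them.

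Values in the deposited table are log2 normalized counts, and each could be turned back into a whole count (within 0.01 counts for 100% of values). The recovered total of a lane, the single run of 1 sample's RNA, was 25582 for Sham 1, 14897 for Sham 2 and 6560 for Sham 3, against 51533, 29200 and 62883 at TIA 3d. The means were 15680 ± 9535 and 47872 ± 17137 (SD, n = 3 each), a ratio of 3.05, and no Sham lane reached the shallowest TIA 3d lane (two-sided exact permutation test, p = 0.1, the smallest that 3 against 3 allows). Some lanes stood apart before any comparison. In Sham 3 the highest gene, C1qc, had 32 counts, and 26 genes had 20 counts or more, against 241 in Sham 1 and at least 313 in each TIA 3d lane. Over all genes the correlation of log2 values was 0.37 between Sham 1 and Sham 3, whereas the lowest within TIA 3d was 0.85.

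The label of the cells was checked against microglial markers, of which 7 of 9 listed were in the table. They held 16.0% of all counts in Sham 1, 7.47% in Sham 2 and 1.91% in Sham 3, and between 8.70% and 13.4% in the TIA 3d lanes. The myelin and oligodendrocyte list held 1.04%, 7.67% and 2.74% of the Sham counts and between 0.538% and 1.05% at TIA 3d. The share of counts in microglial genes was thus smallest in Sham 3. In Sham 2 it was also below that of Sham 1 and the TIA 3d lanes. Counts near background also enter these shares, and their part was not tested. In such bulk samples, fewer cells of a type and less RNA per cell cannot be told apart, and the part that lane depth had in the differences below was not tested, since every TIA 3d lane was deeper than every Sham lane.

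Microglia at TIA 3d had higher levels of the chemokines Ccl3 and Ccl4, of the NF-kB genes Nfkbia and Nfkb2, of 5 immediate early genes and of the 3 C1q chains than each sham animal, but no single gene passed the test over the whole panel. In limma with Benjamini-Hochberg adjustment, 0 of 757 genes passed an adjusted p of 0.05, and the smallest adjusted p was 0.0558, for Nfkbia. Without adjustment, 148 genes (19.6%) had a p under 0.05, with 101 (13.3%) higher and 47 (6.21%) lower in the TIA 3d animals. Voom on the recovered counts and an ordinary linear model also called 0 genes. For 183 genes (24.2%) the groups did not overlap, meaning that all values of one group lay above all of the other. Of these, 114 (15.1%) were higher and 69 (9.11%) lower at TIA 3d. The split depended on the scaling, with 59 higher and 64 lower after quantile normalization and 38 higher and 165 lower with scaling to the lane total. The median difference over all genes was -0.01 on the log2 scale.

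The count depended on single lanes. Without Sham 1, the sham lane most like the TIA 3d lanes, 84 genes passed the adjusted p of 0.05, with 73 (9.64%) higher and 11 (1.45%) lower at TIA 3d. Weighting the lanes by their fit gave 109 (14.4%) higher and 65 (8.59%) lower. Without any other single lane the count stayed at 0.

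The difference varied with the number of counts behind a gene. Of the 53 genes with a mean of 100 counts or more over the 6 lanes, 52 were above 0, with a median difference of 1.68, and 29 were higher and 0 lower without overlap. In the 61 genes with a mean from 50 to below 100 counts the median was 1.14, and 29 were higher and 0 lower without overlap. Of the 177 genes with a mean below 10 counts, 44 were above 0, their median was -0.47, and 3 were higher and 24 lower without overlap. The deeper TIA 3d lanes weigh most in such a mean. Counts of list members given below stand against the shares of all genes, 15.1% higher and 9.11% lower without overlap. Since the share higher without overlap rose with the count, lists of genes with many counts are read against genes with similar counts. Medians are likewise read against genes with similar counts.

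**Figure D1:**
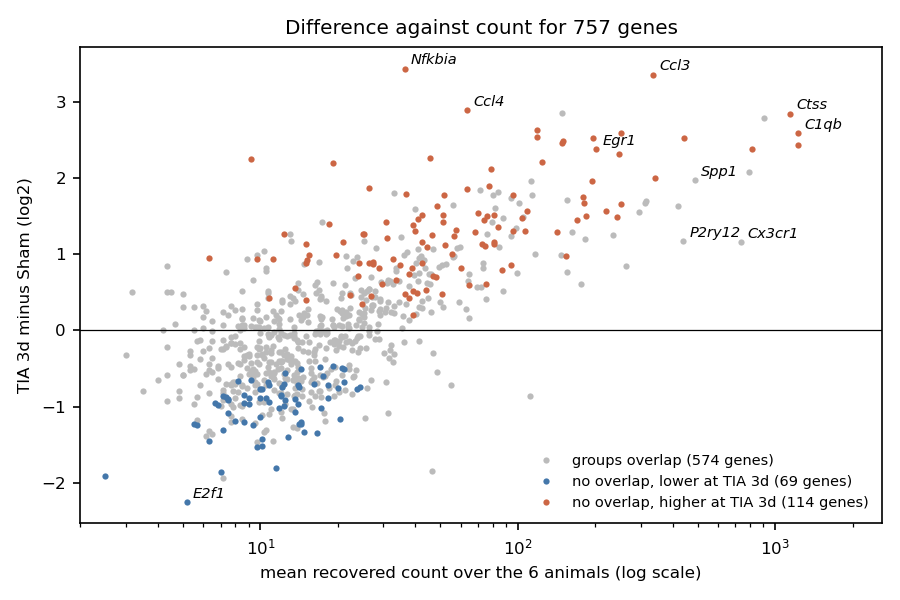
Difference TIA 3d minus Sham on the log2 scale (vertical axis) against the mean recovered count over the 6 animals (horizontal axis, log scale), 1 point a gene for 757 genes. The 114 genes higher without overlap lie toward the high counts and the 69 lower ones toward the low counts.

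Nfkbia, Nfkb2 and chemokine genes were among the higher genes with the smallest p. Nfkbia encodes I-kappaB alpha, which holds NF-kB in the cytoplasm and is itself switched on by NF-kB. Its log2 value was 3.52, 1.13 and 0.97 in Sham 1, 2 and 3 and 5.40, 4.86 and 5.69 at TIA 3d, from 12, 2 and 1 counts against 75, 34 and 94. The TIA 3d animals lay together above the sham animals, and the sham values were spread, with Sham 1 closest. The difference was 3.44 ± 0.61 (SE; 10.8-fold), with an adjusted p of 0.0558, so it did not pass. The adjusted p was 0.0436 with the replicate block, 0.00306 with trend and robust prior, 0.000166 with array weights and 0.00024 without Sham 1. It was 0.063 with voom, 0.0811 with scaling to the lane total, 0.215 in the fit of 6 samples and 0.264 in the ordinary linear model, and reached 0.374 when 1 sample was left out. It lay between 2.99 and 4.26 when 1 animal at a time was left out. The fold rests on a sham mean that is set by lanes with 2 and 1 counts.

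Nfkb2, the precursor of the p52 subunit, had 8, 6 and 1 counts in the sham animals and 32, 32 and 36 at TIA 3d. On the log2 scale this was 2.21 ± 1.08 against 4.41 ± 0.32 (SD, n = 3 each), a difference of 2.21 (adjusted p = 0.114). The TIA 3d animals were close to each other and above each sham animal. Of the 11 NF-kB subunits, inhibitors and kinases measured, 3 were higher without overlap and 0 lower, beside 15.1% and 9.11% of all genes. At an unadjusted p under 0.05, 2 were higher and 1 lower. In the list 9 lay above 0, and the median difference was 0.38. With scaling to the lane total 2 were higher and 2 lower, and the median was -0.35. The remaining gene without overlap was Nfkbie, a further inhibitor of NF-kB, with 9, 5 and 5 counts against 25, 15 and 32. Ikbke, an inducible kinase of the family, was lower by the mean (-1.01) with overlapping groups.

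The promoters of these genes are shown because the kappaB element is the sequence NF-kB binds. In 250 bases before the most upstream RefSeq start (GRCm38.p6), the letters GGG, any 2 bases and TTTCC were searched in a run on both strands, and the match is in capitals. Nfkbia is on the minus strand of chromosome 12 (chr12:55492648-55492897), with the match GGAAATTCCC at 29 bases before the start. Nfkb2 is on the plus strand of chromosome 19 (chr19:46304487-46304736), with GGGGCTTTCC at 11 bases. Fcgr3, an Fc receptor described below, is on the minus strand of chromosome 1 (chr1:171059404-171059653), with GGGGTTTTCC at 152 bases.
Nfkbia: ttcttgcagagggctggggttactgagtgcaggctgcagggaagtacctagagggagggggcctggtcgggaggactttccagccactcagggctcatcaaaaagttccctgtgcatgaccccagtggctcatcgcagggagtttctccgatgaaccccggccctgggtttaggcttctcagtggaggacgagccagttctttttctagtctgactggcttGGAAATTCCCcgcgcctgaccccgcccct
Nfkb2: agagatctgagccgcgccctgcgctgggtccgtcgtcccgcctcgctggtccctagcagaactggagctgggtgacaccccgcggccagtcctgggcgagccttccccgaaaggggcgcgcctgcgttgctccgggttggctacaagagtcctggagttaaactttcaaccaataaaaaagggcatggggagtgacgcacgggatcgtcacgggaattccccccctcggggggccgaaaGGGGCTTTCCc
Fcgr3: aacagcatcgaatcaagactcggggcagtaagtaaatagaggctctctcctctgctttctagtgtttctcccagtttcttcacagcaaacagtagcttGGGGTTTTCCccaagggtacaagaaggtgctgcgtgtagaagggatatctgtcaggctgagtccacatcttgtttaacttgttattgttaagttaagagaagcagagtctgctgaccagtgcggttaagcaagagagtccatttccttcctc
The letters were found in 1.41% of 27025 genes with a window, in 3.23% of 589 genes of the table, in 6 of 88 genes higher without overlap (6.82%) and in 0 of 48 lower without overlap. The 6 genes were C3ar1, Casp4, Fcgr3, Nfkb2, Nfkbia and Traf3, the last being outside the naming rule. A match describes letters in this window and says nothing of binding.

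The chemokines, which draw monocytes and lymphocytes, were the next group. Ccl3 had 81, 20 and 6 counts in Sham 1, 2 and 3 and 593, 117 and 1190 at TIA 3d, with log2 values of 6.28, 4.45 and 3.56 against 8.38, 6.64 and 9.35. The groups did not overlap, though TIA 3d 2 lay just above Sham 1. The difference was 3.36 ± 0.74 (SE; 10.3-fold; adjusted p = 0.1). It lay between 2.75 and 4.12 when 1 sample was left out, and was 2.24 after quantile normalization and 0.55 with total count as a covariate. Ccl4 had 12, 13 and 2 counts against 106, 47 and 202, a difference of 2.90 ± 0.59 (SE; adjusted p = 0.1). In both genes TIA 3d 3 was the highest animal and TIA 3d 2 the lowest of its group. Ccl2, which recruits CCR2-positive monocytes, had 25, 9 and 11 counts against 93, 37 and 131, a difference of 1.51 (adjusted p = 0.172). Ccl7, a relative of Ccl2, was lower without overlap on the log2 scale (-1.24), from 13, 10 and 7 counts against 5, 9 and 12. Of the 7 inflammatory chemokines measured, 3 were higher and 2 lower without overlap, with a median difference of 0.05. With scaling to the lane total 2 were higher and 3 lower, and the median was -0.55. Of 3 chemokine receptors none was apart.

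**Figure D2:**
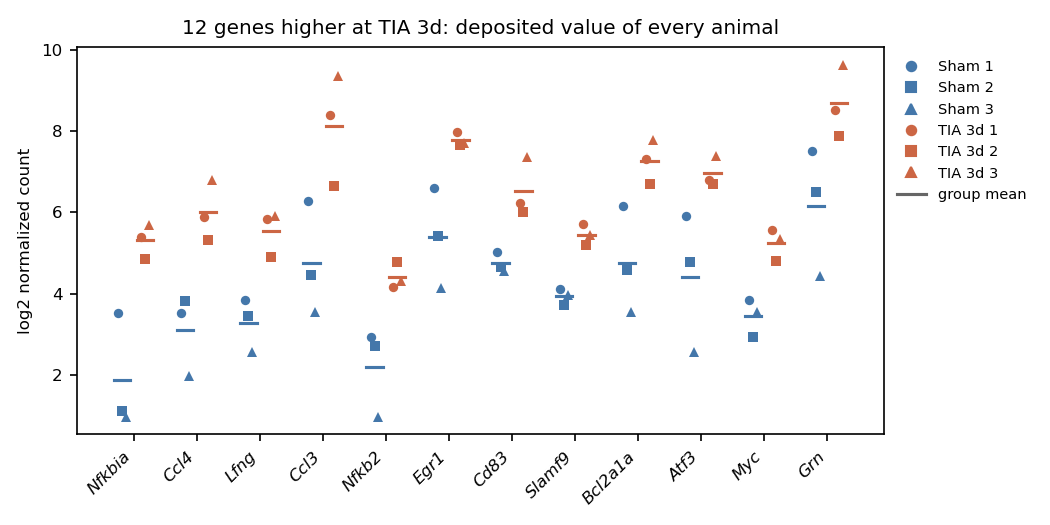
Deposited log2 normalized count (vertical axis) of every animal for the 12 genes higher at TIA 3d named by the rule; symbols mark the 3 Sham (blue) and 3 TIA 3d (orange) animals and bars the group means. In each gene all TIA 3d animals lie above all sham animals, and Sham 3 is the lowest sham animal in most of them.

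Immediate early genes encode transcription factors that cells induce without new protein synthesis, and 5 of them were higher without overlap in TIA 3d microglia, though none passed the test. Egr1 had 101, 39 and 9 counts in the sham animals and 444, 235 and 379 at TIA 3d. Its log2 level was 5.38 ± 1.23 against 7.77 ± 0.17 (SD, n = 3 each), a difference of 2.39 ± 0.56 (SE; adjusted p = 0.114). Fos had 157, 55 and 5 counts against 508, 300 and 489, and a difference of 2.60 (adjusted p = 0.158; 1.50 without Sham 3 and 3.47 without Sham 1). Both genes were nearly level among the TIA 3d animals, and among the sham animals they were lower the shallower the lane.

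Atf3, a stress-induced repressor, had 63, 25 and 3 counts against 198, 122 and 303, a difference of 2.54 (5.83-fold; adjusted p = 0.122), which was 1.61 without Sham 3 and 3.29 without Sham 1. Myc, a driver of growth, differed by 1.80 from 15, 7 and 6 counts against 85, 33 and 74 (adjusted p = 0.131). Jun, the partner of FOS in AP-1, differed by 1.57 (adjusted p = 0.167). In these 3 genes the groups did not overlap. Of 9 measured genes of the list, 6 were higher and 1 lower without overlap, beside 15.1% and 9.11% of all genes. The lower one was Hspb1, a small heat shock protein (-0.96), which was named after its values were seen. The median difference was 1.57, beside -0.01 over all genes and 1.68 over genes with a mean of 100 counts or more. After quantile normalization the list's median was 1.33, and with total count as a covariate it was 0.20. The inhibitor of transcription was in the buffer of both groups, and the part of tissue handling in these differences was not tested.

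The 3 chains of C1q, which starts the classical complement cascade and tags synapses, had values that ran in parallel over the animals. C1qb had 833, 198 and 24 counts in Sham 1, 2 and 3 and 2382, 965 and 2963 at TIA 3d. Its log2 values were 9.64, 7.76 and 5.56 against 10.38, 9.69 and 10.66, so that TIA 3d 2 lay just above Sham 1. C1qa had 532, 153 and 22 counts against 1574, 640 and 1975, and C1qc had 838, 204 and 32 against 2326, 983 and 2958. The differences were 2.38 for C1qa, 2.59 for C1qb and 2.43 for C1qc, with adjusted p of 0.158, 0.16 and 0.158. The 3 genes held 8.61%, 3.73% and 1.19% of the Sham counts and 12.2%, 8.86% and 12.6% of the TIA 3d counts.

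The size of the C1q difference varied with the scaling and the lanes. Its median was 0.61 after quantile normalization, 1.67 with scaling to the lane total, 1.52 without Sham 3, and 3.36 without Sham 1, where the 3 chains passed. With total count as a covariate it was -0.42. Scaled to the lane total, the groups still did not overlap for any of the 3 chains.

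C3ar1, the receptor of C3a, had 111, 41 and 18 counts against 365, 139 and 411, a difference of 1.67 (adjusted p = 0.158). C5ar1, the receptor of C5a, had 39, 18 and 19 counts against 165, 45 and 150, and a difference of 1.14 (adjusted p = 0.209). In both receptors the groups were apart. Among 8 complement genes other than C1q, 2 were higher and 1 lower without overlap, and the median was -0.41. With scaling to the lane total 1 was higher and 2 were lower, the median was -0.81, and C5ar1 overlapped.

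Activating Fc receptors bind IgG-coated material and signal through the gamma chain Fcer1g. Fcgr3 had 78, 28 and 4 counts in the sham animals and 295, 98 and 392 at TIA 3d, a difference of 2.46 ± 0.73 (SE; 5.49-fold; adjusted p = 0.158), which was 1.59 without Sham 3 and 3.21 without Sham 1. Fcer1g had 84, 32 and 8 counts against 178, 98 and 251, a difference of 1.57 (adjusted p = 0.16). The inhibitory receptor Fcgr2b had 109, 39 and 20 counts against 209, 140 and 338, a difference of 1.30 (adjusted p = 0.16). All 3 were apart by narrow gaps between Sham 1 and the lowest TIA 3d animal. Of the 4 receptor genes measured, 3 were higher without overlap, beside 29 of 53 genes with a mean of 100 counts or more. The median was 1.43, beside 1.68 over those genes, and became 0.73 under quantile normalization and -0.21 with total count as a covariate. Fcgr1, the high-affinity receptor, overlapped (difference 1.24).

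TREM2, a lipid receptor, signals through the adaptor TYROBP to the kinase SYK. Trem2 had 146, 57 and 16 counts against 315, 209 and 365, a difference of 1.51 (adjusted p = 0.16). Tyrobp had 191, 44 and 7 counts against 420, 235 and 582, a difference of 2.32 (adjusted p = 0.158; 1.40 without Sham 3 and 3.27 without Sham 1). Both were apart, Tyrobp with 7.52 in Sham 1 against 7.65 in TIA 3d 2 on the log2 scale. Pik3r1, a regulatory subunit of PI3-kinase, was also apart, from 17, 17 and 6 counts against 121, 36 and 94 (difference 1.64, adjusted p = 0.16). Inpp5d, the phosphatase SHIP1, which opposes PI3-kinase, differed by 1.85 (adjusted p = 0.16) with overlapping groups. Of 19 genes of this list, 6 were higher and 1 lower without overlap, beside 15.1% and 9.11% of all genes. Among all genes with a mean from 50 to below 100 counts, 29 of 61 were higher and 0 lower. In the list 15 lay above 0, with a median of 0.98. That median was 0.45 after quantile normalization, 0.21 with scaling to the lane total, where 3 were higher and 2 lower without overlap, and -0.16 with total count as a covariate.

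Lysosomal genes were higher by the mean in 9 of 10 measured members, with 5 apart and a median of 1.43. Over all genes with a mean of 100 counts or more, 29 of 53 were higher without overlap, and the median was 1.68. Ctss, cathepsin S, a protease of microglial lysosomes that also trims the invariant chain of MHC class II, had 820, 213 and 11 counts in the sham animals and 2068, 984 and 2762 at TIA 3d. Its difference was 2.85 ± 0.97 (SE; 7.2-fold; adjusted p = 0.16), or 1.41 without Sham 3 and 4.01 without Sham 1, and the gap between Sham 1 and TIA 3d 2 was narrow, at 9.62 against 9.71 on the log2 scale. Grn, progranulin, which is needed for lysosome function, had 190, 83 and 11 counts against 655, 276 and 1445, a difference of 2.53 (adjusted p = 0.156; 1.67 without Sham 3 and 3.21 without Sham 1). Cd68, a lysosomal membrane protein of phagocytes, had 117, 50 and 10 counts against 324, 168 and 500 (difference 1.96, adjusted p = 0.158). Lamp1 differed by 1.66 (adjusted p = 0.16). These 4 genes were apart, and Lamp2, a second lysosomal membrane protein, overlapped (difference 1.20). Without Sham 3 the median of the list was 0.95, and with total count as a covariate -0.14.

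Among 7 genes of antigen presentation and costimulation, 4 were higher without overlap, and with scaling to the lane total 2 were higher and 2 lower. Cd86, a costimulatory ligand of CD28, had 43, 15 and 4 counts against 116, 58 and 144, a difference of 1.86 (adjusted p = 0.158). Ifi30, a reductase of lysosomal antigen processing, differed by 1.16 (adjusted p = 0.206), and its TIA 3d 3 lane, with 244 counts, was far above the other two animals of its group at 95 and 58. Cd83, a further surface protein of activated antigen-presenting cells, was among the 12 leading genes, with 34, 23 and 12 counts against 133, 75 and 298 and a difference of 1.78 ± 0.43 (SE; adjusted p = 0.114). Slamf9, a surface receptor of the SLAM family on myeloid cells, had 18, 12 and 8 counts against 94, 43 and 79, a difference of 1.52 (adjusted p = 0.114). The Sham values of Cd83 and Slamf9 lay close together on the log2 scale (SD 0.25 and 0.20), unlike those of most higher genes.

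Genes that mark microglial identity were higher by the mean, with less separation. Csf1r, the receptor on which microglia depend, had 750, 188 and 21 counts in Sham 1, 2 and 3 and 1517, 805 and 1451 at TIA 3d. On the log2 scale it was 7.51 ± 2.07 against 9.60 ± 0.16 (SD, n = 3 each), a difference of 2.09 (adjusted p = 0.205), and the groups overlapped through Sham 1. The difference was 1.01 without Sham 3 and 3.07 without Sham 1. Tgfbr1, a receptor of the TGF-beta signal that keeps microglia in their resting state, overlapped (difference 1.64). So did Mef2c, which restrains microglial responses (difference 1.74). Without Sham 3 these differences were 0.83 for Tgfbr1 and 0.86 for Mef2c, and without Sham 1 they were 2.44 and 2.61. In the list of CSF1, TGF-beta and lineage genes 10 of 10 lay above 0 with a median of 1.23, which was -0.47 with total count as a covariate.

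The homeostatic receptors did not separate the groups. P2ry12, the purinergic receptor that guides microglial processes, had 742, 197 and 13 counts in the sham animals and 652, 596 and 438 at TIA 3d, with log2 values of 9.47, 7.75 and 4.67 against 8.52, 8.99 and 7.91. Cx3cr1, the fractalkine receptor, had 1118, 296 and 29 counts against 1355, 973 and 644. For both genes Sham 1 lay above every TIA 3d animal on the log2 scale, and the means of the Sham group were set by Sham 3. The difference of P2ry12 was 1.17 ± 0.90 (SE; adjusted p = 0.446) and became -0.14 without Sham 3 and 2.26 without Sham 1. That of Cx3cr1 was 1.17 ± 0.86 (SE; adjusted p = 0.427), 0.04 without Sham 3 and -0.75 after quantile normalization. Tmem119 differed by 1.55 (adjusted p = 0.28). Of 8 homeostatic genes, 0 were apart in either direction, 7 lay above 0, and the median was 1.01, or -0.03 without Sham 3.

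Because the lanes differed in the share of counts in microglial genes, levels were also set against the mean of P2ry12, Cx3cr1 and Tmem119 in the same lane. These 3 genes were chosen with the data in view, and the result is a description. On that scale 7 genes (0.925%) were higher without overlap at TIA 3d and 19 (2.51%) were lower. Among the 7 were Ctss (difference 1.55), Lgmn (1.49), Fos (1.30), C1qb (1.30), Atf3 (1.25) and Csf1r (0.79). Lgmn, the lysosomal protease legumain, lies outside the naming rule. Ctss was at 0.28, 0.25 and -0.50 in the Sham lanes and at 1.35, 0.77 and 2.56 at TIA 3d, log2 units above the 3 reference genes. The other C1q chains, C1qa (1.09) and C1qc (1.14), overlapped there, as did Egr1, Jun, Myc, Nfkb2 and Tyrobp. Among the 19 lower genes were E2f1 (-3.55), Nqo1 (-3.16) and Myrf (-3.11). Ccl3, at -3.06, -3.16 and -1.38 against -0.45, -2.30 and 1.35, overlapped, as did Ccl4 and Nfkbia. Sham 3, where the reference genes had 10 to 29 counts, was the sham animal nearest to TIA 3d for Ccl3, Ccl4 and Nfkbia.

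**Figure D3:**
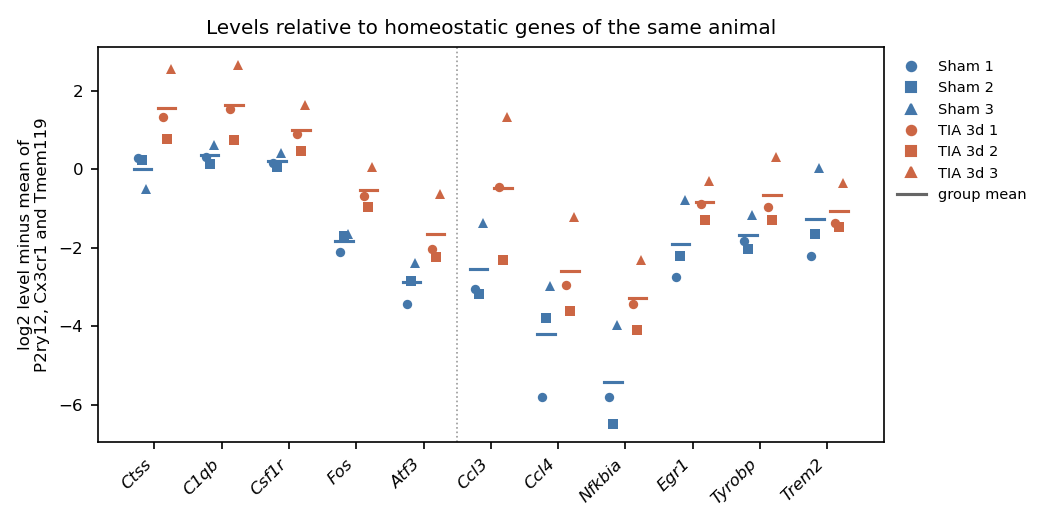
Log2 level minus the mean of P2ry12, Cx3cr1 and Tmem119 in the same animal (vertical axis) for 11 genes; symbols mark the 3 Sham (blue) and 3 TIA 3d (orange) animals and bars the group means. Left of the dotted line are 5 genes whose groups do not overlap on this scale, from Ctss to Atf3, and to the right 6 whose groups do. C1qa and C1qc, not shown, overlap on this scale.

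Cytokines and innate sensors gave a mixed picture. Il1a, the alarmin interleukin-1 alpha, had 54, 19 and 3 counts against 134, 80 and 184, a difference of 2.12 with no overlap (adjusted p = 0.181). Il1b, the inflammasome product, had 9, 8 and 6 counts against 24, 3 and 19, a difference of -0.43 with overlap (adjusted p = 0.677), and its sign turned to 0.30 without TIA 3d 2. Tnf had 10, 14 and 8 counts against 88, 20 and 105. Its difference was 1.47 (adjusted p = 0.16), and TIA 3d 2 lay near the sham animals, at 4.09 against 3.97 in Sham 3.

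The inflammasome genes Nlrp3 (difference 1.24), Casp4 (0.82) and the ATP-gated channel P2rx7 (1.11), which opens upstream of NLRP3, were each apart, with adjusted p of 0.19, 0.268 and 0.172. Of 12 genes of the interleukin-1 system and inflammasome 4 were higher and 0 lower without overlap, with a median of -0.08, and with scaling to the lane total 2 were higher and 3 lower. Of 27 TNF ligands and receptors 5 were higher and 2 lower without overlap (median -0.08), against 0 and 4 with scaling to the lane total (median -0.83). Among 10 Toll-like receptor genes 3 were higher and 1 lower without overlap (median 0.65), and with scaling to the lane total 0 were higher and 2 lower (median -0.09). Cd14, the coreceptor for lipopolysaccharide, had 36, 20 and 7 counts against 124, 41 and 192 and was apart (difference 1.54, adjusted p = 0.165). Tlr7, a sensor of RNA, and the signalling kinase Irak2 each differed by 1.60 (adjusted p = 0.16) and overlapped.

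Among 22 type I interferon genes 5 were higher and 2 lower without overlap, near the shares of all genes (15.1% and 9.11%), with a median of 0.26. With scaling to the lane total 1 was higher and 3 were lower, and the median was -0.43. Ifnar1, a chain of the receptor, had 13, 4 and 3 counts against 43, 18 and 78, a difference of 1.88 ± 0.50 (SE; adjusted p = 0.128). Irf1, an early interferon response factor, had 32, 21 and 9 counts against 119, 51 and 81, a difference of 1.13 (adjusted p = 0.168). Both were apart.

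Genes of disease-associated microglia, the state described around amyloid plaques, had a median of 0.11, with values that differed widely among the TIA 3d animals. The median depended on members with few counts, being 1.27 (0.15 over all genes) without genes below the 0.25 quantile of the mean and 1.97 (0.61 over all genes) with 20 counts in 3 lanes or more. Both filters use the TIA lanes, and a gene can pass the second through the 3 TIA 3d lanes alone. The higher medians follow in part from that. Spp1, osteopontin, had 6, 7 and 9 counts in the sham animals and 9, 7 and 2883 at TIA 3d. A single animal, TIA 3d 3, carried it, and the difference of 1.98 (adjusted p = 0.534) became -0.74 without it. Apoe, a lipid carrier, had 57, 42 and 1 counts against 293, 54 and 446, with overlapping groups (difference 2.85, adjusted p = 0.167). Its difference was 1.30 without Sham 3 and 3.69 without Sham 1. Itgax, which encodes CD11c, was lower without overlap on the log2 scale (-0.86) from 10, 11 and 13 counts against 15, 9 and 14. Of the 12 genes 1 was higher and 1 lower without overlap. In the clearance list of 12 genes 0 were apart (median 0.26), and Mertk, a receptor for dying cells, and the integrin Itgb5 differed by 1.30 and 1.70 with adjusted p of 0.269 and 0.21. Without Sham 3 these differences were 0.68 and 0.77, and without Sham 1 they were 1.99 and 2.53. Cd300lf, a myeloid receptor for lipids, had 14, 19 and 18 counts against 43, 23 and 58 and a difference of 0.20 (adjusted p = 0.806).

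Apoptosis, DNA repair and chromatin genes lay near the median of all genes. Bcl2a1a, an antiapoptotic target of NF-kB that belongs to a cluster of near-identical copies which the probe may not separate, had 74, 22 and 6 counts against 283, 121 and 397 and was apart (difference 2.49, adjusted p = 0.114). Over the 33 apoptosis genes, however, 2 were higher and 4 lower without overlap (median -0.07), against 1 and 8 with scaling to the lane total (median -0.65). Of 43 DNA replication and repair genes 1 was higher, Pcna, the sliding clamp of replication (26, 19 and 3 counts against 85, 40 and 137), and 4 were lower, with a median of -0.15, against 1 and 9 with scaling to the lane total (median -0.72). Of 54 chromatin regulators 6 were higher and 8 lower without overlap (median -0.11), against 0 and 21 with scaling to the lane total (median -0.76). Eed, a core subunit of Polycomb complex PRC2, was among the higher (difference 1.26, adjusted p = 0.19). Lfng, which modifies Notch receptors and belongs to none of these lists, was one of the 12 leading genes, with 15, 10 and 3 counts against 102, 35 and 109 and a difference of 2.26 ± 0.48 (SE; adjusted p = 0.1).

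Core autophagy genes had a median of 0.52 with 3 of 13 higher and 0 lower without overlap, against 0 and 2 with scaling to the lane total, where the median was -0.22. Hypoxia and hexose transport genes had a median of 0.22 and 1 of 8 higher, and Hif1a, the oxygen-regulated factor, overlapped (difference 1.10). Oxidative defence genes had a median of 0.20 and 1 of 11 lower, Nqo1. Ncf1, a subunit of the NADPH oxidase, differed by 1.78 and overlapped. Eicosanoid genes had a median of -0.08 and 1 of 7 lower, while Hpgds, the prostaglandin D synthase of microglia, differed by 1.97 (adjusted p = 0.168) with overlap.

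**Figure D4:**
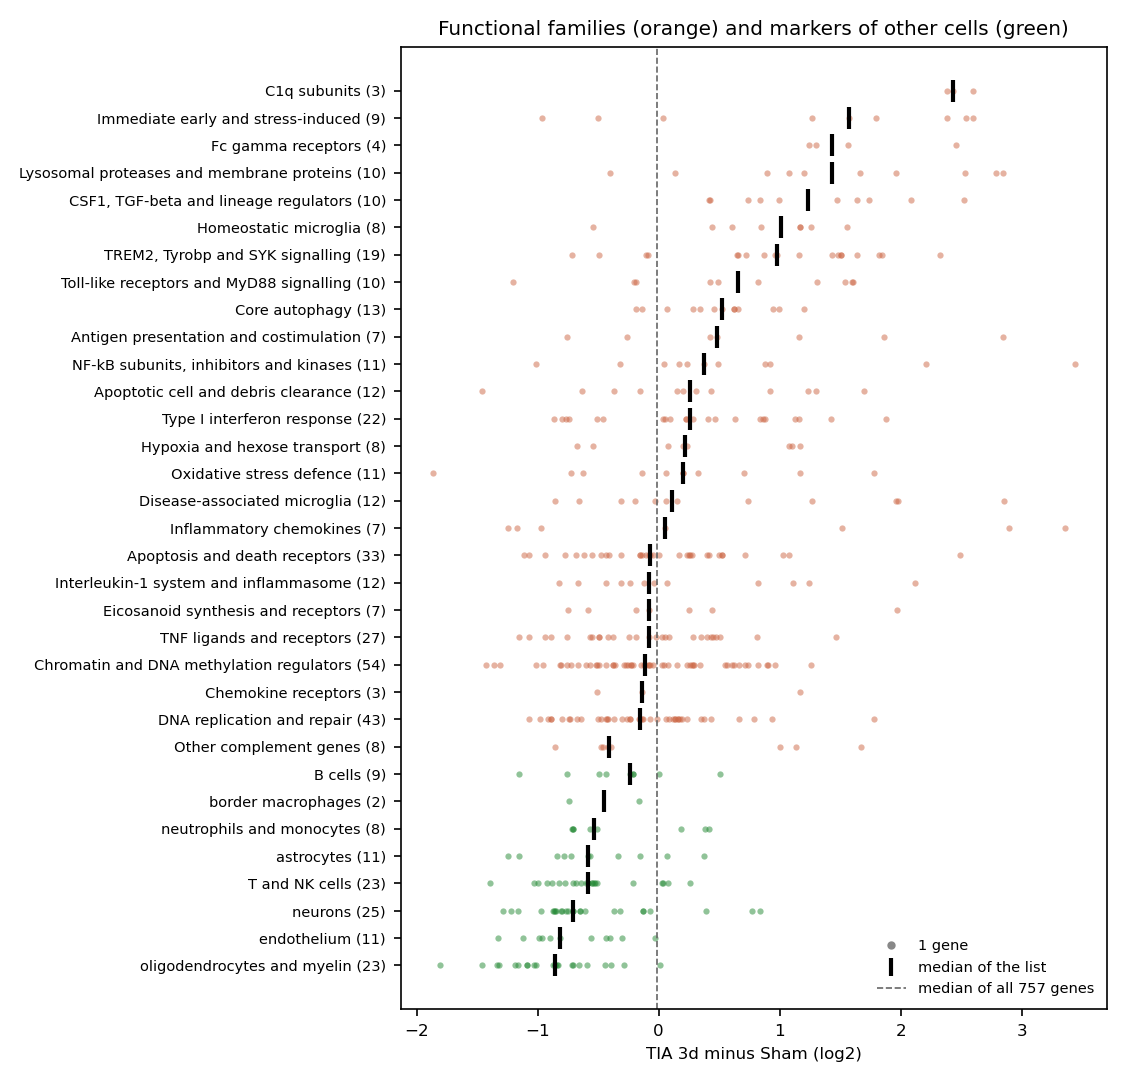
Difference TIA 3d minus Sham on the log2 scale (horizontal axis) for each measured gene of 25 functional families (orange) and 8 marker lists of other cells (green), with the number of genes in brackets; black ticks are list medians and the dashed line the median of all 757 genes. The C1q chains lie highest, with a median of 2.43, and the medians of all marker lists of other cells lie below 0.

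Genes with lower log2 values at TIA 3d had few counts, and their counts seldom separated the groups. E2f1, a cell cycle transcription factor, had log2 values of 3.40, 2.45 and 3.30 in the Sham lanes and 1.17, -0.23 and 1.45 at TIA 3d, from 11, 5 and 5 counts against 4, 1 and 5. The difference was -2.25 ± 0.58 (SE; adjusted p = 0.122), and the groups were apart on the log2 scale while they touched in counts. Irak3, an inhibitor of Toll-like receptor signalling, had 9, 11 and 8 counts against 9, 7 and 8, and a log2 difference of -1.21 (adjusted p = 0.16). The counts of Irak3 differed little between the groups, and the factors that scaled the lanes spanned 3.58-fold.

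Over the 69 lower genes without overlap, the median count was 11 in the Sham lanes and 11 at TIA 3d, and the highest count in any lane was 38. In 36 of the 69 the mean count was higher at TIA 3d than in Sham. The counts did not overlap either in 2 of them, among them Kdm4d, a histone demethylase (11, 12 and 12 against 8, 8 and 10, log2 difference -1.43, adjusted p = 0.16). The 114 higher genes had a median count of 16 in Sham and 76 at TIA 3d. Since every TIA 3d lane had a smaller scaling factor than every Sham lane, a gene that is higher without overlap on the log2 scale is also apart in counts by construction.

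The other lower genes of the naming rule were Nqo1, a quinone reductase (-1.87), Timp1, an inhibitor of metalloproteinases (-1.45), Ak1, an adenylate kinase (-1.34), Abcc8, a subunit of ATP-sensitive potassium channels (-1.53), and the oligodendrocyte genes Tmem88b (-1.33) and Myrf (-1.81). Myrf, the factor that drives myelin genes, had 11, 30 and 6 counts against 8, 9 and 5. Sham 2, the lane with the most myelin transcripts, held its highest value, and the difference was -1.29 without that lane. The adjusted p of these 6 genes lay between 0.158 and 0.16.

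**Figure D5:**
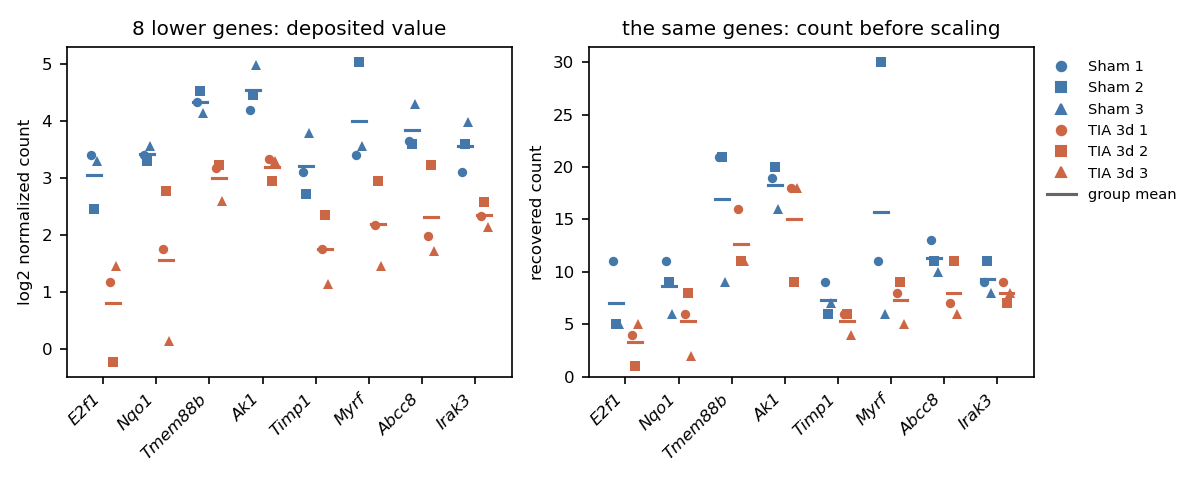
The 8 genes lower at TIA 3d named by the rule, as deposited log2 normalized counts (left, vertical axis) and as recovered counts before scaling (right, vertical axis from 0), with the 3 Sham (blue) and 3 TIA 3d (orange) animals as symbols and the group means as bars. The groups are apart on the left and overlap or touch on the right, where few values exceed 20 counts.

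Transcripts of other cells had a median difference below 0 in each of the 8 marker lists. For oligodendrocytes and myelin 22 of 23 genes lay below 0, 6 were lower and 0 higher without overlap, and the median was -0.86, or -1.34 with scaling to the lane total. The summed level of that list was 256, 1247 and 353 in the Sham lanes and 259, 263 and 185 at TIA 3d, and Sham 1 was within the TIA 3d range. For 25 neuronal genes the median was -0.71, with summed levels from 220 to 376 in Sham and from 186 to 220 at TIA 3d. For 11 endothelial genes the median was -0.82 and for 11 astrocyte genes -0.58. For markers of infiltrating leukocytes the median was -0.58 over 23 T and NK cell genes, -0.24 over 9 B cell genes and -0.54 over 8 neutrophil and monocyte genes, and of these 40 genes 0 were higher without overlap, beside 15.1% of all genes. The median count of each of these 3 lists was 12 or less in every Sham and TIA 3d lane. Over all genes with a mean below 10 counts the median difference was -0.47, and 3 of 177 were higher and 24 lower without overlap. From 10 to below 20 counts the median difference was -0.38, and 12 of 265 were higher and 38 lower. Both measured markers of border macrophages, Cd163 and Siglec1, lay below 0, with summed levels of 29, 33 and 55 in Sham and 28, 30 and 26 at TIA 3d. Their part in the differences of microglial genes was not tested. With scaling to the lane total in place of the deposited factors, the median of all genes was -0.64, and 38 genes (5.02%) were higher and 165 (21.8%) lower without overlap, with the 3 C1q chains among the higher ones and a median for the chains of 1.67.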

How the data were processed

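The authors deposited log2 normalized counts of 757 genes in 9 samples. Per the methods, the scale of a lane was set in ROSALIND by its housekeeping probes, chosen by geNorm and summarised by their geometric mean, and genes under the negative controls were dropped. Whether the deposited table was filtered in that way is not given in the sources used here, and its background could not be read, since it lists no control probe. A value near background therefore moves with the factor of its lane.

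From the files, whole counts were recovered per lane (tolerance 0.01). No count of 0 was found. Group means on the log2 values of all 9 samples were fitted with lmFit and eBayes of limma 3.58.1 in R 4.3.3, with the two-sided contrast TIA 3d minus Sham, Benjamini-Hochberg adjustment over 757 genes and a threshold of 0.05. The script was tested on simulated data. Groups were read from the sample titles, and total counts were compared by an exact permutation test. Symbols were matched to RefSeq (750 directly, 7 through synonyms), and promoters came from RefSeq (GRCm38.p6), without chromosome 18.

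The members and lists were chosen with earlier results of these data known. Named were the 12 higher genes with the smallest p, without overlap and with at least 20 counts in every TIA 3d lane, the 8 lower genes with the smallest p and no overlap, up to 4 genes of each family by p, and a set of genes named whatever their values, such as P2ry12, Tnf and Spp1. A few genes that the rule would name are not reported here. Alternatives changed the scaling between lanes (median centring, quantile normalization, lane total with log2 of counts per 10000 plus 1), the filter, the test (voom, trend and robust prior, ordinary linear model), lane weights, a total count covariate, the replicate block and the samples.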

Additional observations from a re-analysis of the deposited data

Results flagged for a closer look

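The difference between TIA 3d and Sham was set against that between TIA 24h and Sham through the contrast of both TIA groups, which is the test of whether the effects differ. In limma with Benjamini-Hochberg adjustment, 145 of 757 genes (19.2%) passed, and of the 77 genes named here 50 passed, 43 with a higher level at TIA 3d than at TIA 24h and 7 with a lower one, at adjusted p from 0.0229 to 0.0494. Most of the named genes were chosen by their p or separation in TIA 3d against Sham, and both contrasts use the same TIA 3d lanes, so the number that passed and its direction follow in part from that choice. All TIA 3d lanes were deeper than all TIA 24h lanes, so that depth and time point cannot be told apart. The microglial markers held 3.26%, 2.45% and 1.37% of the TIA 24h counts against 8.70% to 13.4% of those at TIA 3d, and the oligodendrocyte and myelin list held 7.28%, 4.28% and 7.28% against 0.538% to 1.05%. Their part in these differences was not tested. The values in brackets are TIA 3d minus TIA 24h on the log2 scale.

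Among chemokine, NF-kB and cytokine genes these were Ccl3 (2.60), Ccl4 (1.88), Nfkbia (1.89), Nfkb2 (1.62), Bcl2a1a (2.31), Il1a (4.45), Il1b (-1.77) and Nlrp3 (1.52). Among immediate early genes they were Egr1 (2.75), Fos (2.68), Jun (2.35) and Atf3 (3.09). The complement genes were C1qa (3.38), C1qb (3.34), C1qc (3.65) and C3ar1 (2.14). The Fc receptor, TREM2 and kinase pathway genes were Fcgr1 (1.89), Fcgr2b (1.95), Fcgr3 (2.74), Fcer1g (1.75), Trem2 (2.84), Tyrobp (3.12), Pik3r1 (2.36) and Inpp5d (2.21). The lysosomal and surface genes were Ctss (4.04), Grn (3.07), Lamp1 (2.20), Cd83 (1.74), Slamf9 (1.47), Itgam (2.20), Itgb5 (3.44) and Mertk (1.93). The identity genes were P2ry12 (3.12), Cx3cr1 (2.96), Tmem119 (3.31), Fcrls (2.54), Csf1r (3.95), Mef2c (2.26) and Tgfbr1 (2.79). Sensors, interferon genes and others were Tlr7 (2.24), Ifnar1 (1.83), Irf1 (1.51), Hpgds (2.55) and Pcna (1.89). Besides Il1b, the lower ones were E2f1 (-1.99), Tmem88b (-1.78), Timp1 (-1.62), Myrf (-2.94), Irak3 (-1.68) and Kdm4d (-1.43). P2ry12, Cx3cr1 and Tmem119, whose groups overlapped between TIA 3d and Sham, were thus among the genes that differed between the time points.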

How the results depend on the processing

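The number of genes past the adjusted p of 0.05 was 0 under median centring, quantile normalization, lane total scaling, the filter on 20 counts, voom, the ordinary linear model, the fit of 6 samples and the total count covariate. It was 1 with genes below the 0.25 quantile of the mean left out, 8 with trend and robust prior (all higher) and 174 with array weights. Leaving out 1 animal at a time gave 0 to 84, with 84 only without Sham 1. The number of genes without overlap was 183 (114 higher, 69 lower), with 59 higher and 64 lower after quantile normalization, became 110 of 334 under the filter on 20 counts, and ranged from 210 to 373 when 1 animal was left out, with 373 without Sham 1 and 321 without TIA 3d 2. The ratio of total counts ranged from 2.37 to 4.46.

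The replicate numbers recur in each group without a stated pairing. Deviations of same-numbered Sham and TIA 3d animals correlated at 0.11, -0.05 and -0.20, and each Sham animal correlated better with a TIA 3d animal of another number. The fit with the replicate block gave 1 gene, Nfkbia (adjusted p = 0.0436).

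With total count as a covariate, a term nearly shared with the group, 34 of the 77 named genes changed sign: Grn (-0.21), P2ry12 (-1.68), Cx3cr1 (-1.44), Tmem119 (-1.13), Csf1r (-0.93), C1qa (-0.42), Tyrobp (-0.21), Ctss (-1.02), Il1a (-0.63), Fos (-0.16), Jun (-0.18), Apoe (-1.48), C1qb (-0.64), C1qc (-0.41), Itgam (-0.83), Itgax (0.14), Fcrls (-1.09), Mef2c (-0.69), Tgfbr1 (-0.63), Inpp5d (-0.39), Fcgr3 (-0.38), Fcer1g (-0.040), Fcgr1 (-0.40), Itgb5 (-0.87), Mertk (-0.73), Lamp1 (-0.091), Ifi30 (-0.0013), Ikbke (0.31), Hmox1 (-0.026), Hif1a (-0.58), Ncf1 (-0.73), Lamp2 (-1.03), Hpgds (-0.60) and Pcna (-0.0085). Other reversals were Cx3cr1 (-0.75), Cd300lf (-0.34) and Fcgr2b (-0.0031) under quantile normalization, Cd300lf under lane total scaling (-0.53) and voom (-0.34), and Il1b with array weights (0.072). When 1 animal was left out, P2ry12 ranged from -0.14 (without Sham 3) to 2.26, Cd300lf from -0.13 (without Sham 1) to 0.57, Il1b from -0.90 to 0.30 (without TIA 3d 2) and Spp1 from -0.74 (without TIA 3d 3) to 3.40. The causes were not tested. Few animals, Sham lanes with few counts and the absence of control probes from the table limit what can be read from genes under 20 counts.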
